A study of Mus musculus with 4 samples.

Results

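The transferrin receptor gene Tfrc was examined together with 9 other genes of iron handling in bulk RNA-seq of mouse gut. The genes were selected by symbol, and they made up 10 of the 55203 genes listed, with 56 transcripts among them. Tfrc was picked because of its difference between the 2 groups of libraries in these same data, and the other 9 were picked for their place in iron metabolism, to be set beside it. The differences between groups are therefore given as descriptions without a test for these 10 genes. All tissue came from adult male wild-type C57BL/6NTac mice aged 8-12 weeks and kept under specific-pathogen-free conditions. The labels put 2 libraries in an RVC group, treated with the ribonuclease inhibitor ribonucleoside vanadyl complex (RVC) at 4 mM, and the other 2 in a fresh-frozen group. One protocol text, with an RVC rinse, was attached to both groups, so how the fresh-frozen tissue was rinsed is not known. Nothing in the labels says that the libraries of a group came from separate animals, and each library carried a batch number of its own, so that group and batch cannot be told apart.

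Iron enters many cells bound to transferrin, which Tfrc carries into endosomes, where the reductase Steap3 converts ferric to ferrous iron and Slc11a2 (DMT1) moves it into the cytosol. Spare iron is stored in shells made of the ferritin heavy and light chains (Fth1, Ftl1), and iron leaves the cell through ferroportin (Slc40a1) with the help of the ferroxidase hephaestin (Heph). When iron is scarce, the iron regulatory proteins encoded by Aco1 and Ireb2 bind hairpins called iron-responsive elements. Binding in the 3′ UTR of Tfrc mRNA protects it from decay, whereas binding in the 5′ UTR of ferritin and ferroportin mRNAs blocks their translation. In the gut, the ferric reductase Cybrd1 and Slc11a2 are known for iron uptake at the luminal face of the duodenum, and Slc40a1 and Heph for its export to the blood.

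These hairpins set Tfrc apart from the other members in sequence, so they are shown first. Reference transcripts (GENCODE vM39, GRCm39) were searched on the transcript strand for a C, 5 bases, the loop CAGTGN and 5 bases that pair with the first 5, G-T pairs allowed, with up to 1 unpaired extra base in the second arm. Matches lay in transcripts of 5 of the 10 genes, namely Tfrc, Fth1, Ftl1, Slc40a1 and Slc11a2. Each window is written 5′ to 3′ on the coding strand, with the 6-base loop in capitals, and Tfrc windows are named by their distance in bases from the stop codon.
Tfrc, 888 after stop: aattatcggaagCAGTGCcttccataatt
Tfrc, 1267 after stop: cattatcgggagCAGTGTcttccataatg
Tfrc, 1332 after stop: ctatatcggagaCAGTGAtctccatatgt
Tfrc, 1379 after stop: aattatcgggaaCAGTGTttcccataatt
Fth1, 5′ UTR: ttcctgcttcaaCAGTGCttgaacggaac
Ftl1, 5′ UTR: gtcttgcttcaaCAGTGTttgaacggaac
Slc40a1, 5′ UTR: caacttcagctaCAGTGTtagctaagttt
Slc11a2, 3′ UTR: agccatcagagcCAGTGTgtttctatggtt

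The Tfrc windows lie at chr16:32450037-32450065, chr16:32450416-32450444, chr16:32450481-32450509 and chr16:32450528-32450556, all on the plus strand and in the 3′ UTR. The Fth1 window lies at chr19:9960096-9960124 on the plus strand, 115 bases before the start codon. The Ftl1 window lies at chr7:45109203-45109231 and the Slc40a1 window at chr1:45964625-45964653, both on the minus strand, 153 and 207 bases before the start codon. The Slc11a2 window, at chr15:100293033-100293062 on the minus strand, begins its match 37 bases after the stop codon and was the only member match with an extra base. Over the 17-base core, from the leading C to the end of the second arm, the Fth1 and Ftl1 elements shared 16 bases, and pairs of Tfrc elements shared between 11 and 15. Fth1 shared between 8 and 10 core bases with the Tfrc elements. The search rule itself fixes the leading C and the CAGTG of the loop, so all matches share those bases. The shared counts include them and are no measure of conservation. Of 140468 reference transcripts searched, 2.11% held at least 1 match, and only 2 transcripts, both of Tfrc, held 4. With Watson-Crick pairs only, Tfrc kept 3 matches and 0 transcripts held 4. Among 11267 transcripts within 20% of the length of the main Tfrc transcript, 5.37% held a match. A match is a description of the letters and not proof of a working element, and Heph, Cybrd1, Ireb2, Aco1 and Steap3 had none in the windows searched.

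**Figure D1:**
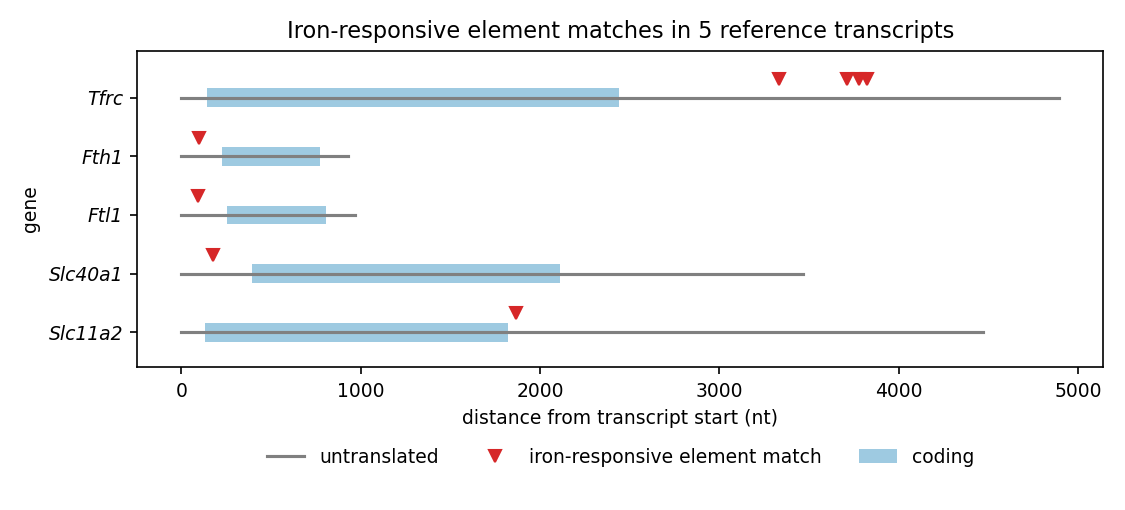
Positions of iron-responsive element matches (triangles) along 1 reference transcript for each of 5 genes, with the distance from the transcript start in nucleotides, the coding part as a bar and untranslated parts as a line. Tfrc has 4 matches, all after its coding part, Slc11a2 has 1 just after it, and Fth1, Ftl1 and Slc40a1 have 1 each before it.

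The number of sequenced fragments is not known from the files. The ratio of coverage to FPKM (fragments scaled to transcript length and to the number mapped) placed the shallowest library, fresh frozen 1, at 72.6% of the deepest, fresh frozen 2. The labels give ileum as the tissue and the protocol gives distal colon. The colon marker Car1 ranged from 1576 to 1781 FPKM, whereas the ileum marker Fabp6 ranged from 2.70 to 3.96 FPKM, and Fgf15 and Apoa4 were listed at 0 in every library. The epithelial marker Epcam ranged from 665 to 784 FPKM.

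Expression levels of the 10 genes spanned a 2034-fold range of mean FPKM, a unit corrected for transcript length, so that genes can be compared. The ferritin chains stood far above the rest, with Fth1 at 1157 ± 166 FPKM and Ftl1 at 548 ± 91.7 FPKM (SD, n = 4). The exporter Slc40a1 followed at 119 ± 12.4 FPKM and its partner Heph at 46.0 ± 1.69 FPKM (SD, n = 4). Tfrc measured 30.9 ± 15.0 FPKM (SD, n = 4), a range wide enough to overlap that of Heph. Aco1 at 14.9 ± 1.41 FPKM, Slc11a2 at 12.7 ± 1.34 FPKM and Ireb2 at 12.2 ± 2.60 FPKM (SD, n = 4) came next, and neighbours among these could not be separated by their ranges. The endosomal reductase Steap3 measured 5.48 ± 0.323 FPKM (SD, n = 4). Cybrd1 was lowest at 0.569 ± 0.140 FPKM (SD, n = 4), below the mean of 1 scaled FPKM asked of a gene in the comparison of groups. Of the 9 neighbouring pairs in this order, 3 had overlapping ranges, namely Heph with Tfrc, Aco1 with Slc11a2 and Slc11a2 with Ireb2. Without RVC 1, or without RVC 2, the order of Slc11a2 and Ireb2 was exchanged.

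The exporter Slc40a1 stood above the importer Slc11a2 in every library. The ratio of Slc40a1 to Slc11a2 was 10.5 and 8.32 in RVC 1 and 2, and 9.29 and 9.57 in fresh frozen 1 and 2. Heph to Slc40a1 was a steady 0.389 ± 0.0273 (SD, n = 4), and the heavy to light ferritin ratio was 2.12 ± 0.125 (SD, n = 4). None of these ratios separated the groups. Among 46335 genes with a transcript of at least 300 nt, Fth1 ranked 51st and Ftl1 117th by mean FPKM, Tfrc 1975th and Cybrd1 15803rd.

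**Figure D2:**
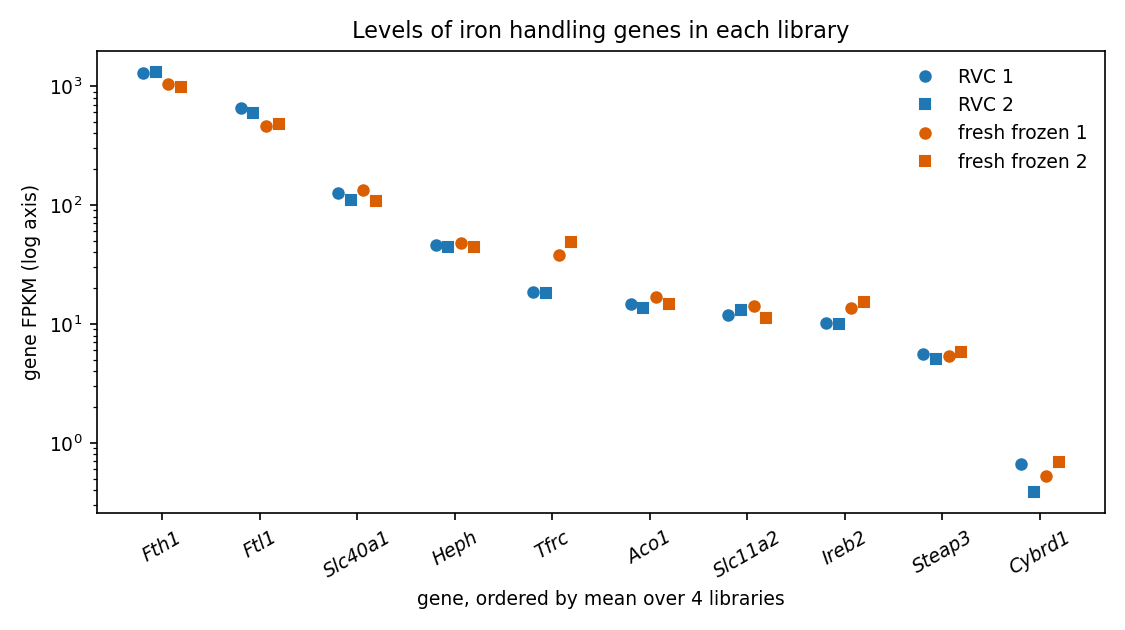
Gene FPKM (log axis) of the 10 iron handling genes in each of the 4 libraries, circles for sample number 1 and squares for number 2, ordered by mean. Fth1 lies between 991 and 1319 FPKM and Cybrd1 below 0.70, and Tfrc is the gene whose groups lie farthest apart in this log view.

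For the groups, FPKM was scaled by median ratio and compared as log2(scaled FPKM + 1). Of 13775 genes compared with limma, 5 (0.0363%) had a Benjamini-Hochberg adjusted p under 0.05, of which 2 (0.0145%) were higher and 3 (0.0218%) lower in RVC, with 2530 (18.4%) at an unadjusted p under 0.05. The 9 iron genes that reached the mean of 1 included 0 of these 5, a count from which nothing is read because Tfrc was chosen in this contrast. Groups without overlap were seen for 5 of the 9 genes, against 53.2% of all genes compared, and for 5.7% of all genes the gap came with a log2 difference of at least 0.5 in size, as it did for Tfrc alone of the 9. Of these, Tfrc, Ireb2 and Aco1 were lower in RVC, where 26.6% of all genes were lower without overlap, and Fth1 and Ftl1 were higher in RVC, where 26.5% were. In bulk tissue, fewer cells of a type and less RNA per cell cannot be told apart.

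Tfrc (ENSMUSG00000022797, chromosome 16, 32427738 to 32451612, GRCm39), the receptor that takes up transferrin, measured 18.7 and 18.4 scaled FPKM in RVC 1 and 2, and 37.3 and 49.3 in fresh frozen 1 and 2. Both fresh-frozen libraries stood far above either RVC library, and they differed more from each other than the RVC libraries did. The RVC mean was 18.5 ± 0.249 and the fresh-frozen mean 43.3 ± 8.45 (SD, n = 2 in each group), a 2.34-fold higher level in fresh frozen. The log2 difference of RVC minus fresh frozen was -1.17 (SE 0.145) and ran from -1.38 to -0.96 over the 4 pairings of libraries. It was the 13th most negative of the 13775 differences, whose median was 0.0062 and whose 5th and 95th percentiles were -0.41 and 0.45. Leaving out fresh frozen 1 gave -1.36 and leaving out fresh frozen 2 gave -0.97.

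The ferritin genes lay in the opposite direction to Tfrc. Fth1 (ENSMUSG00000024661, chromosome 19, 9957962 to 9962462), the heavy chain with ferroxidase activity, measured 1283 and 1318 scaled FPKM in RVC 1 and 2, and 1028 and 999 in fresh frozen 1 and 2. Ftl1 (ENSMUSG00000050708, chromosome 7, 45107368 to 45109308), the light chain, measured 654 and 598 in RVC 1 and 2, and 460 and 480 in fresh frozen 1 and 2. For both genes the lowest RVC value stood above the highest fresh-frozen value. The RVC means were 1.28-fold those of fresh frozen for Fth1 and 1.33-fold for Ftl1, with log2 differences of 0.36 (SE 0.137) and 0.41 (SE 0.126). These differences are inside the central range of all genes given above. The ratio of Fth1 to Tfrc was 68.6 and 71.8 in RVC 1 and 2, and 27.5 and 20.3 in fresh frozen 1 and 2. Tfrc was chosen for its difference between the groups, so this ratio carries that difference and is no separate evidence. Ferritin pseudogenes can share reads with the parent genes. Of 9 listed, 3 reached a mean of 1 FPKM, namely Ftl1-ps1 at 66.3 ± 4.24 FPKM, Ftl2-ps at 22.4 ± 4.11 and Fth1-ps at 15.2 ± 1.76 (SD, n = 4).

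Among the RNA-binding regulators, Ireb2 lay in the same direction as Tfrc. Ireb2 (ENSMUSG00000032293, chromosome 9, 54771073 to 54819814), which encodes iron regulatory protein 2, measured 10.2 and 9.91 scaled FPKM in RVC 1 and 2, and 13.5 and 15.3 in fresh frozen 1 and 2. Both fresh-frozen values were above both RVC values, and the mean was 1.43-fold higher in fresh frozen. Its log2 difference was -0.48 (SE 0.118), the 436th most negative of all genes compared. Aco1 (ENSMUSG00000028405, chromosome 4, 40143081 to 40198338), the cytosolic aconitase that becomes iron regulatory protein 1 when it lacks its iron-sulfur cluster, measured 14.7 and 13.5 in RVC 1 and 2, and 16.7 and 14.8 in fresh frozen 1 and 2. RVC 1 and fresh frozen 2 were nearly equal, and before scaling they overlapped, at 14.7 and 14.6 FPKM. The log2 difference of -0.14 (SE 0.119) was little larger than its error. The ratio of Aco1 to Ireb2 was 1.44 and 1.36 in RVC 1 and 2, and 1.24 and 0.965 in fresh frozen 1 and 2.

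The transporters and reductases showed overlapping groups. Slc40a1 (ENSMUSG00000025993, chromosome 1, 45947228 to 45965683) measured 126 and 109 scaled FPKM in RVC 1 and 2, and 131 and 109 in fresh frozen 1 and 2. Its spread lay between the libraries of a group, and its log2 difference was -0.023 (SE 0.137). Heph (ENSMUSG00000031209, chromosome X, 95498965 to 95618091) measured 46.5 and 44.6 in RVC 1 and 2, and 47.7 and 45.2 in fresh frozen 1 and 2. It was the least variable of the 10 genes, with a coefficient of variation of 3.67% over the libraries and a log2 difference of -0.027 (SE 0.104). Slc11a2 (ENSMUSG00000023030, chromosome 15, 100285779 to 100322953) measured 12.0 and 13.1 in RVC 1 and 2, and 14.1 and 11.3 in fresh frozen 1 and 2, with a log2 difference of -0.010 (SE 0.137). Steap3 (ENSMUSG00000026389, chromosome 1, 120118487 to 120200435) ranged from 5.08 to 5.86 FPKM, with a log2 difference of -0.069 (SE 0.129). Cybrd1 (ENSMUSG00000027015, chromosome 2, 70948267 to 70973270) was listed at 0.662 and 0.387 FPKM in RVC 1 and 2, and at 0.531 and 0.695 in fresh frozen 1 and 2. Each of these 5 genes had at least 1 RVC library inside the fresh-frozen range or the reverse. The median log2 difference of the 8 genes other than Tfrc was -0.025, beside 0.0062 over all genes.

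**Figure D3:**
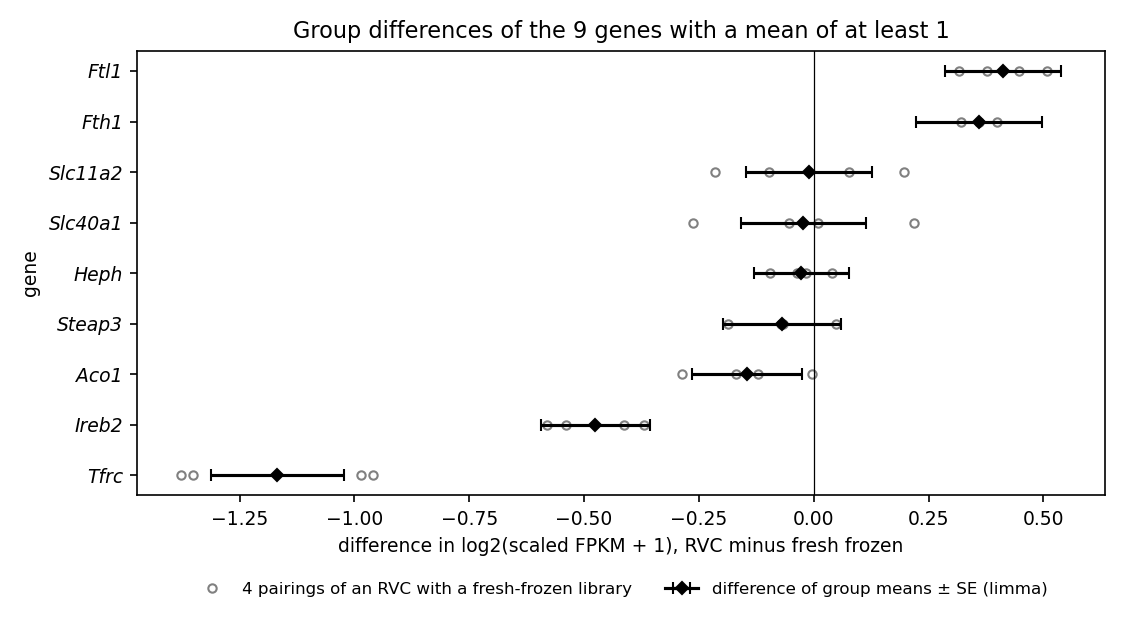
Differences in log2(scaled FPKM + 1), RVC minus fresh frozen, for the 9 genes with a mean of at least 1 scaled FPKM; diamonds with bars are differences of group means ± SE from limma, and open circles are the 4 pairings of libraries. Tfrc lies at -1.17 and Ireb2 at -0.48, Fth1 and Ftl1 lie at 0.36 and 0.41, and the circles of Slc11a2, Slc40a1, Heph and Steap3 fall on both sides of 0.

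The transcripts of each gene were examined next, by whether the reference sequence held a match to the element. Cufflinks assigns shared reads to overlapping transcripts by a likelihood model, and these shares are therefore estimates. The full-length Tfrc transcript ENSMUST00000023486 (4890 nt), which carries the 4 matches, took 73.0% ± 4.41 of Tfrc FPKM (SD, n = 4). It was listed at 12.7 FPKM (deposited bounds 11.8 to 13.5) and 14.0 (13.1 to 14.9) in RVC 1 and 2. In fresh frozen 1 and 2 it was listed at 26.7 (25.2 to 28.2) and 37.6 (35.8 to 39.5). The bounds of the RVC libraries stayed below those of the fresh-frozen libraries. Those of fresh frozen 1 and 2 did not overlap each other either. Such bounds describe the estimate within a library and not the spread between libraries. Tfrc was chosen for this difference, so the gap is a description only. A shorter coding transcript, ENSMUST00000120680 (1860 nt), which holds no match, took 13.0% ± 4.41 (SD, n = 4).

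Transcripts of Tfrc with matches held 72.1% and 78.9% of its FPKM in RVC 1 and 2, and 75.0% and 82.0% in fresh frozen 1 and 2, so the groups overlapped in this share. In FPKM, transcripts with matches stood at 13.4 and 14.5 in RVC and at 28.3 and 40.0 in fresh frozen. Transcripts without matches stood at 5.19 and 3.88 in RVC and at 9.43 and 8.81 in fresh frozen. Both kinds were higher in the fresh-frozen libraries. They are parts of the same Tfrc FPKM for whose difference the gene was chosen, and overlapping transcripts share reads. This is therefore a description only.

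For Fth1, transcripts with the 5′ element held between 97.2% and 97.7% of FPKM, nearly all in the 929-nt coding transcript ENSMUST00000025563. For Slc40a1 the share was between 92.1% and 94.6%, mostly in the 3370-nt transcript ENSMUST00000027137. Ftl1 differed, with only 29.3% to 31.0% of FPKM in transcripts with the element. The larger part, 67.0% ± 1.47 (SD, n = 4), was assigned to ENSMUST00000210375, a 710-nt transcript without a defined coding sequence that starts downstream of the element. The 968-nt coding transcript ENSMUST00000094434 took 29.9% ± 0.705 (SD, n = 4). Slc11a2 is known to make mRNAs with and without the element at the 3′ end. The 4415-nt transcript with it, ENSMUST00000138843, held 19.5% and 23.3% of Slc11a2 FPKM in RVC 1 and 2, and 16.5% and 20.1% in fresh frozen 1 and 2. The 3025-nt transcript without it, ENSMUST00000023774, held 39.6% ± 5.68 (SD, n = 4), and a 389-nt fragment, ENSMUST00000154331, held 34.5% ± 6.10 (SD, n = 4). Short transcripts receive unstable FPKM values, which limits the Slc11a2 shares.

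**Figure D4:**
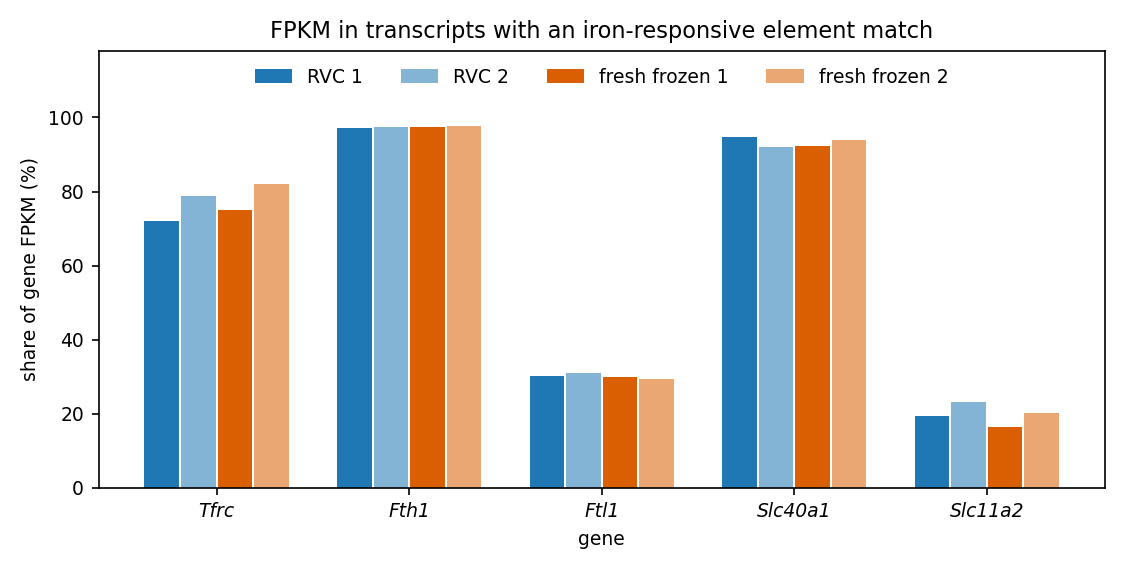
Share of gene FPKM (%) assigned to transcripts with an iron-responsive element match, one bar for each library and blue for RVC, for the 5 genes that have such transcripts. Fth1 and Slc40a1 stand at 92.1% or more, Tfrc between 72.1% and 82.0%, Ftl1 near 30% and Slc11a2 between 16.5% and 23.3%, with little difference between groups.

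The wider iron pathway was described with 8 lists of 88 further genes, 87 of them in the files and 72 with a mean of at least 1 scaled FPKM. Abcb10 was not analysed here. None of the 72 passed in either direction in limma, with Benjamini-Hochberg adjusted p between 0.129 and 0.995. Of the 72, 14 were at an unadjusted limma p under 0.05. Over all 13775 genes compared, 5 (0.0363%) passed and 18.4% were at an unadjusted p under 0.05. With so few passing anywhere, nothing is read from the counts of 0 in this list or the lists below. Without overlap between groups were 40 of the 72 (55.6%), near the 53.2% of all genes, with 26 higher and 14 lower in RVC. Of all genes compared, 26.5% were higher and 26.6% lower in RVC without overlap. Their median log2 difference was 0.070.

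Other mRNAs listed as carrying an iron-responsive element, not all with a match here, had 0 of 4 genes past the threshold. Their median log2 difference was 0.14. Epas1, the oxygen-regulated transcription factor HIF-2α, measured 35.0 and 30.5 FPKM in RVC 1 and 2, and 28.0 and 29.6 in fresh frozen 1 and 2. Of the 4 genes, 3 were higher in RVC without overlap, and 1 was lower, where 26.5% of all genes were higher and 26.6% lower in that way. The lower gene was Cdc42bpa, which encodes a kinase and is named after its values were seen, at 4.99 and 4.94 scaled FPKM in RVC 1 and 2, and 5.35 and 7.02 in fresh frozen 1 and 2. The Epas1 reference transcript, like those of Alas2, held 1 match in the 5′ UTR. By the rule used here, no match was found in reference transcripts of Cdc42bpa or of Cdc14a, another of the 4 genes.

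Uptake genes outside the members had 0 of 11 past the threshold and a median of 0.15. Tfr2, a second transferrin receptor, was at most 0.032 FPKM, and the transferrin gene Trf ranged from 9.14 to 12.9 FPKM. The metal importer Slc39a8 (ZIP8) measured 2.78 and 2.77 scaled FPKM in RVC 1 and 2, and 4.39 and 4.42 in fresh frozen 1 and 2, a log2 difference of -0.52 (SE 0.129). Snx3 and Mcoln1, which act in endosomes and lysosomes, were the most abundant of this list. Genes for storage, iron chaperones and control of the regulatory proteins had 0 of 9 past the threshold and a median of 0.069. Ncoa4, the receptor that delivers ferritin to lysosomes, ranged from 59.0 to 67.6 FPKM, and the chaperone gene Pcbp2 from 126 to 135. Fbxl5, which targets iron regulatory protein 2 for degradation, measured 11.5 and 13.9 scaled FPKM in RVC 1 and 2, and 15.9 and 16.7 in fresh frozen 1 and 2. Ciao1, of the cytosolic iron-sulfur cluster machinery, measured 13.8 and 12.0 in RVC 1 and 2, and 9.15 and 8.11 in fresh frozen 1 and 2, with a log2 difference of 0.53 (SE 0.127).

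Heme genes had 0 of 15 past the threshold and a median of 0.086. Slc46a1, a transporter of folate that also carries heme, measured 24.5 and 21.8 scaled FPKM in RVC 1 and 2, and 15.6 and 11.4 in fresh frozen 1 and 2. Its log2 difference of 0.75 (SE 0.158) was the largest of the 72 genes, and its limma adjusted p was 0.129. It passed only when sample number was added as a block. Alas1, the first enzyme of heme synthesis, was the most abundant of the list, at 37.4 to 57.8 FPKM, and Hmox2 followed at 15.4 to 20.3. Mitochondrial iron and iron-sulfur genes had 0 of 15 past the threshold and a median of -0.048. Their most abundant member, the chaperone gene Hspa9, measured 31.6 and 33.5 scaled FPKM in RVC 1 and 2, and 43.7 and 43.0 in fresh frozen 1 and 2, and the scaffold gene Iscu ranged from 23.6 to 32.6 FPKM.

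Genes that respond to low oxygen or iron chelation, of which Tfrc is also one, had 0 of 12 past the threshold and a median of 0.079. Hif1a ranged from 78.5 to 88.6 FPKM and Slc2a1, a glucose transporter gene, from 50.0 to 64.3. Of the 12, 4 were higher in RVC without overlap and 0 were lower, where 26.5% of all genes were higher and 26.6% lower in that way. Genes of hepcidin control had 0 of 3 past the threshold, with Neo1 and Furin most abundant. Extracellular and host defence iron-binding genes had 0 of 3 past the threshold. Among them Lcn2, which binds bacterial siderophores, measured 1.99 and 2.56 scaled FPKM in RVC 1 and 2, and 1.04 and 0.889 in fresh frozen 1 and 2, a log2 difference of 0.73 (SE 0.162) at a low level. Cp and Cd163 were the most abundant of that list, both under 4 FPKM.

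The genes whose profile over the 4 libraries was most like that of Tfrc were found by root-mean-square distance in log2(scaled FPKM + 1), each gene centred on its mean, among 11492 genes with an established symbol. They were Slc12a2 (distance 0.123), Aadac (0.158), Cftr (0.160), Rn18s (0.169) and Esrrg (0.170), where the median distance was 0.619. Slc12a2 encodes a sodium, potassium and chloride cotransporter, Cftr a chloride channel, Aadac an esterase and Esrrg an orphan nuclear receptor, and Rn18s is 18S ribosomal RNA, which library preparation aimed to deplete. Slc12a2 measured 19.7 and 19.6 scaled FPKM in RVC 1 and 2, and 33.3 and 43.6 in fresh frozen 1 and 2. Cftr measured 10.1 and 10.3 in RVC 1 and 2, and 15.8 and 24.8 in fresh frozen 1 and 2. Rn18s measured 566 and 615 in RVC 1 and 2, and 905 and 1566 in fresh frozen 1 and 2. All 5 were lowest in the RVC libraries and highest in fresh frozen 2, and a likeness over 4 libraries is a description only.

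Markers of cell types were set beside the Tfrc difference. Of 12 markers of dividing cells, a class known for high Tfrc, 5 (Mki67, Top2a, Ccnb1, Cdk1 and Birc5) were lower in RVC without overlap, 0 were higher and 7 overlapped, and 0 passed the threshold in limma. Over all genes 26.6% were lower without overlap, and the median log2 difference of the 12 markers was -0.099. Mki67 measured 5.37 and 6.50 scaled FPKM in RVC 1 and 2, and 9.01 and 10.2 in fresh frozen 1 and 2. The DNA replication genes Mcm2, Mcm3, Mcm5, Mcm6 and Pcna were among those that overlapped, with Pcna at 23.5 and 27.7 in RVC 1 and 2, and 24.6 and 21.4 in fresh frozen 1 and 2. The summed FPKM of the list was 61.9 to 73.7 in RVC and 78.3 to 79.0 in fresh frozen, with no marker at 0. Epithelial markers summed to 7176 to 7572 in RVC and 6031 to 7574 in fresh frozen, and these ranges overlapped. Of 9 epithelial markers, 4 were higher in RVC without overlap, 0 were lower and 5 overlapped, with a median log2 difference of 0.10.

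All 7 smooth muscle markers were higher in RVC without overlap, as 26.5% of all genes were, summing to 1110 to 1660 FPKM against 680 to 731, and so were all 7 endothelial markers, at 24.6 to 25.0 against 14.1 to 15.8. Macrophage markers, in cells that store and export iron, were higher without overlap for 5 of 7 and summed to 57.0 to 58.7 in RVC against 36.1 to 44.4. The 5 plasma cell markers compared were all higher without overlap, and the list summed to 879 to 980 against 369 to 571. Erythroid markers, in cells that use Tfrc heavily, summed to 105 to 363 in RVC and 67.1 to 364 in fresh frozen, and their high values fell on RVC 1 and fresh frozen 1. No marker of the muscle, endothelial, macrophage, plasma cell or erythroid lists was at 0 in every library. The part of these cell types in the differences of Tfrc, the ferritin genes and Ireb2 was not tested.

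**Figure D5:**
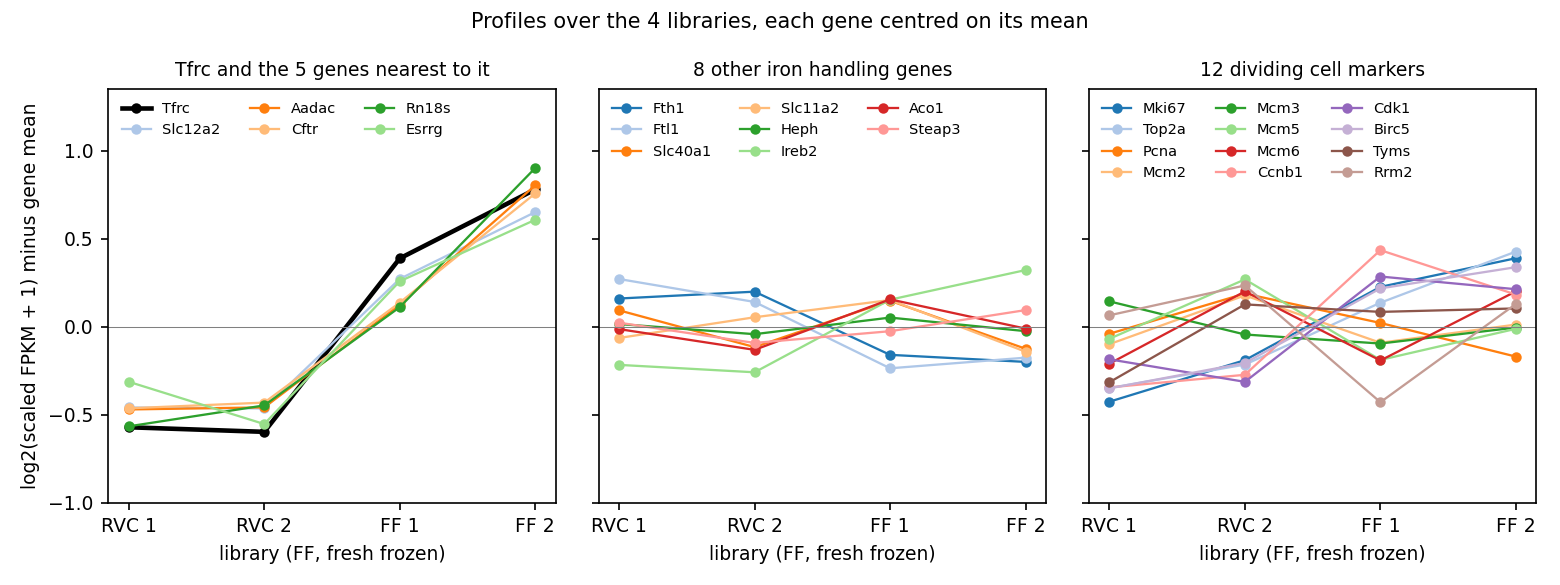
log2(scaled FPKM + 1) of each gene minus its mean over the 4 libraries, for Tfrc with the 5 genes nearest to it (left), the 8 other iron handling genes compared (middle) and 12 dividing cell markers (right). Tfrc and its neighbours are low in both RVC libraries and highest in fresh frozen 2, Ireb2 follows a smaller course of the same direction, and the ferritin genes run the other way.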

How the data were processed

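Bulk RNA of 4 libraries was depleted of ribosomal RNA and sequenced in pairs, per the labels' protocols. The authors aligned reads to GRCm39 with TopHat2 2.1.1 and estimated FPKM per transcript with Cufflinks 2.2.1, per the submitters' processing notes. Annotation release, strand use and read counts are not given in the sources used here, and without strand, overlapping antisense reads cannot be told apart. The deposited coverage (signal, reads per base) was used only for relative depth. Gene FPKM is the sum over transcripts. After median-ratio scaling, genes with a mean of at least 1 FPKM, a transcript of at least 300 nt and status OK throughout were compared on log2(value + 1), a pseudocount of 1 that understates changes of low genes, with limma 3.58.1 (R 4.3.3, trend, two-sided, no block). FPKM values are no counts, so no count model was used. The test was also run on data simulated from its own fitted model, which cannot show how it behaves on these libraries. Sequences came from GENCODE vM39, which held 99.1% of the listed transcripts by identifier. Of these 140468, 104423 had the length listed with the FPKM values, so some sequences searched differ from those quantified. The main Tfrc transcript had 4895 nt in GENCODE and 4890 nt as listed. For Steap3 the lengths were 5662 and 2752 nt, and for Heph 5982 and 4743 nt. The windows printed equal the GRCm39 genome. The members, lists and rules were chosen with earlier results of these data known. Named genes were all 10 members, the 2 most abundant of each list, list genes without overlap and at least 0.5 apart in log2, ferritin pseudogenes of mean 1 or more, and the 5 nearest to Tfrc; others are named after their values were seen, and 1 gene under this rule is not reported here. P-values measure only the spread between these libraries. Alternatives changed the pseudocount, scaling, filters, transcript choice, trend and sample-number block, and left out each library.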

Additional observations from a re-analysis of the deposited data

How the results depend on the processing

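The Tfrc difference kept its direction under all 10 alternatives run, from -1.36 to -0.97. Tfrc was chosen for this difference and its groups do not overlap, so leaving out a library could not change the direction. The sample-number block cannot change the estimate in this balanced design. The kept direction is therefore a description only. The differences of Fth1, Ftl1, Ireb2 and Aco1 also kept their direction, and the scaled values of these genes do not overlap between groups either. That of Steap3 kept its sign, but its groups overlap and it ran from -0.13 to -0.0092. Slc40a1, Slc11a2 and Heph, also close to 0, took either sign. The median over the 8 genes other than Tfrc ran from -0.11 to 0.063 with each library left out. The count of all genes past the threshold was 5 and depended on the fit. limma gave 0 without a filter on low values, with only transcripts of at least 300 nt, and without a trend, with 3531, 2577 and 2462 genes at an unadjusted p under 0.05. It gave 2 at a mean of at least 5 and 2 with the most abundant transcript, and between 13 and 25 with each library left out (22 without RVC 1, 13 without RVC 2, 23 without fresh frozen 1, 25 without fresh frozen 2), where a lone library is assumed to vary like the others. The replicate block gave 123 genes and, in the iron lists, 1 gene (Slc46a1) in place of 0. No label says that a sample number marks a shared animal or day, and whether the numbers pair the samples is not known. Deviations of same-numbered libraries correlated at -0.13 across genes, which 2 pairs cannot settle, and hemoglobin genes split by sample number. The crossed replicate block, added after seeing the data, gave 12. The number of members with an element match was 5, or 4 without an extra base or with Watson-Crick pairs only, where Tfrc had 3 matches in place of 4. Unknown fragment numbers limit genes near 1 FPKM.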

Other observations

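Hemoglobin and hepcidin genes varied between libraries without following the groups. Hbb-bs, an adult beta-globin gene, measured 146 FPKM in RVC 1 and 148 in fresh frozen 1, but 41.8 in RVC 2 and 29.4 in fresh frozen 2. Alas2, the erythroid enzyme of heme synthesis, followed the same split, at 1.27 and 1.37 FPKM in RVC 1 and fresh frozen 1, and 0.415 and 0.432 in RVC 2 and fresh frozen 2. Hamp2, a hepcidin gene, measured 4.53 and 0.777 FPKM in RVC 1 and 2, and 2.12 and 2.59 in fresh frozen 1 and 2, and Hamp itself was at most 0.246 FPKM.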
